A study of Homo sapiens with 3 samples.

Results

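The 9 genes described here encode parts of the Notch pathway: the receptors NOTCH1, NOTCH2 and NOTCH3, the ligands JAG1 and JAG2, the DNA-binding factor RBPJ, its coactivators MAML1 and MAML2, and the target gene HES1. They were taken by symbol from the deposited tables of 57773 genes. The 9 symbols matched 10 rows, because JAG1 is listed under 2 identifiers, of which ENSG00000270408 had 0 reads in every library and was left out. RNA came from the human breast cancer cell line MDA-MB-231, which lacks hormone receptors and HER2, grown as tumorspheres, which are floating clusters formed on plates to which cells cannot attach, in medium with epidermal growth factor, B27 and insulin. The control library came from untreated wild-type spheres. A second library came from wild-type spheres transfected with a LINC00273-pcDNA-CMV clone, in which a viral promoter drives the long non-coding RNA LINC00273 (the library labelled LINC00273 overexpression, below the LINC-labelled library), and the last from wild-type spheres given 10 µM M2, a compound known here by that code alone. All 3 are labelled 24 h, with 1 library per group, and the control label names neither an empty vector nor a solvent.

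Notch receptors are single-pass membrane proteins that are cut when a ligand on a neighbouring cell pulls on them. ADAM10 makes the outer cut and gamma-secretase the inner one, and the freed intracellular part enters the nucleus, where it joins RBPJ and a Mastermind coactivator (the MAML proteins) to turn on targets such as HES1. Without that intracellular part, RBPJ sits on the same sites with corepressors such as NCOR1 and SPEN. In breast cancer lines, Notch signalling is known for its part in self-renewal and sphere formation.

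The libraries held 4695535 to 8620534 reads on genes, of which the structural RNAs RN7SL1 and RN7SK took 39.3% to 54.7%. Levels are given as CPM, the reads of a gene relative to its library's size after TMM scaling. TMM levels a trimmed mean of gene ratios between libraries, so the median ratio need not be 0. Since each group is 1 library, nothing here could be checked against replicates, p-values are not given, and each ratio describes a pair of libraries, not of conditions. Intervals are 95% intervals of the counts (exact Poisson for a level, exact binomial, Clopper-Pearson, for a ratio). They cover counting error only. No read of LINC00273 was recovered from any of the 3 libraries (0 reads each). A floor of 3 fragments counted on its row equals 0.832 CPM for the control, 0.977 for the LINC-labelled library and 1.28 for M2. Strand mode and the treatment of shared reads are not known, so 0 counted reads do not cap its RNA level. Directions given for the second library therefore rest on its label. Markers of this mesenchymal-like line summed to 2580, 2170 and 1330 CPM over 8 genes in the control, LINC-labelled and M2 libraries, most of it VIM (4182 to 11763 reads), while ANXA1 had at most 15 reads, EGFR had 95, 8 and 61, and CD44 had 86, 44 and 29. The 9 luminal markers summed to 15.4, 17.6 and 7.04 CPM, with FOXA1 at 48, 42 and 10 reads, ESR1 at 18, 16 and 12, and the keratins KRT8, KRT18 and KRT19 at 6 or fewer. Markers of blood cells summed to 818, 7.17 and 1410 CPM in the control, the LINC-labelled library and the M2 library, and in the control and M2 libraries most of these were globin reads (HBB had 4860, 9 and 5417 reads in the 3 libraries). The 6 endothelial markers with a row, from cells in which Notch is also active, summed to 55, 65 and 30 reads. The part of these cell types in the results below was not tested.

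RBPJ carried far more reads than any receptor. In bulk RNA, fewer cells of a type and less RNA per cell cannot be told apart. Per kilobase of exon, the control held RBPJ at 53.5 CPM, JAG2 at 20.7, HES1 at 11.6 and MAML1 at 2.68. JAG1 and MAML2 followed at 0.806 and 0.800, and NOTCH2 at 0.421, NOTCH1 at 0.334 and NOTCH3 at 0.266 came last. The counting intervals of the 4 highest did not overlap each other or those below, whereas each of the 5 lowest overlapped its neighbours in this order. RBPJ exceeded 89.5% of the protein-coding genes that reached 100 reads in the control, 96.9% in the LINC-labelled library and 93.5% in the M2 library. In both of the latter, HES1 stood next after RBPJ and ahead of JAG2, with overlapping intervals (14.5 and 12.2 per kilobase in the LINC-labelled library, 13.6 and 13.0 with M2). The level of RBPJ per kilobase was 2.59 times that of JAG2 in the control, 10.3 times in the LINC-labelled library and 7.71 times in the M2 library.

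**Figure D1:**
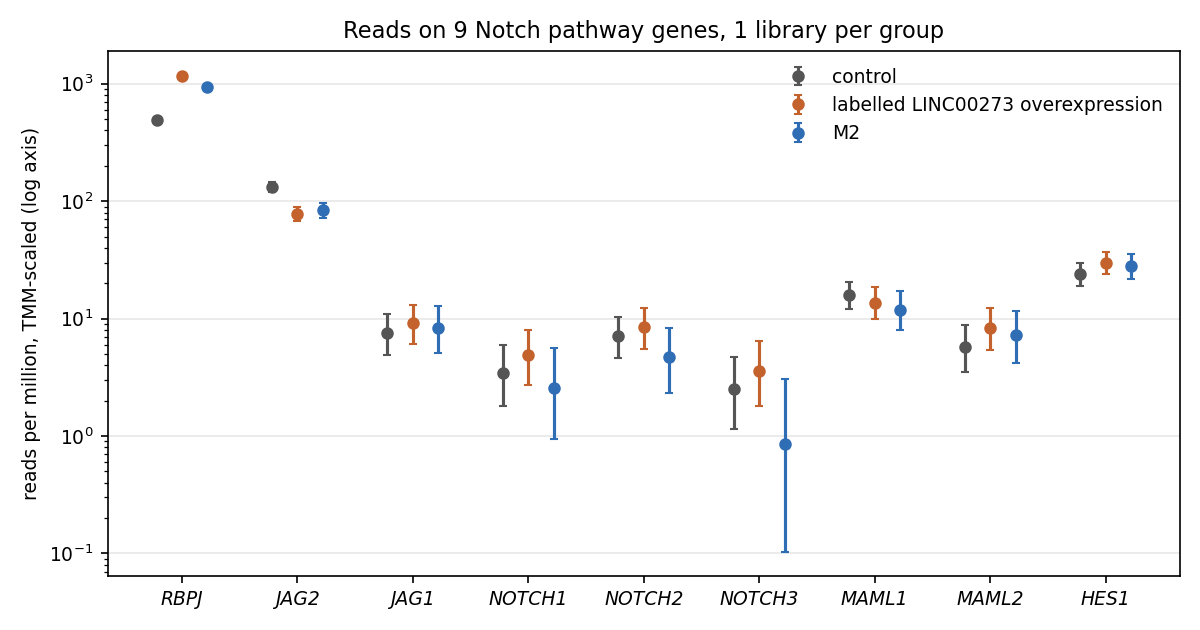
Levels of the 9 genes in the 3 libraries, in TMM-scaled CPM on a log axis, with 95% exact Poisson intervals of the counts. RBPJ runs from 495 in the control to 1157 in the LINC-labelled library, and NOTCH3 lies lowest in each library.

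A gene was judged when either library of a pair held 100 reads or more, and was counted when the pair differed 2-fold or more. RBPJ alone of the 9 genes was counted in the LINC-labelled library, and 4 of the 9 had enough reads to be judged. Of 3842 genes judged in the same way, 5.18% were higher and 6.61% lower by this rule, and their median log2 ratio was −0.21. Scaled to the total count, which moves the median of all genes by 0.52, the same comparison counted 823 genes higher and 37 lower in place of 199 and 254, the deposited scaling counted 265 and 187, and RBPJ was counted under each. After M2, 0 of the 4 genes with enough reads were past 2-fold in either direction, where the background over 3805 genes was 17.4% higher and 8.88% lower. The median log2 ratio of those 3805 genes was −0.02. Counting intervals lay beyond 0 for RBPJ (higher) and JAG2 (lower) in both comparisons and spanned 0 for the other 7 genes. Among all genes that reached 20 reads in the pair of libraries summed, intervals beyond 0 were found higher in 15.2% and lower in 21.8% in the LINC-labelled library, and higher in 22.6% and lower in 20.9% with M2. Both comparisons use the same control library, so a shared direction is not independent. Centred on genes of like GC content, 0 of the 4 members with enough reads were past 2-fold in either comparison, where the background was 3.58% higher and 3.45% lower in the LINC-labelled library and 4.62% higher and 6.38% lower with M2. That centring turned the M2 split of all genes from 661 higher and 338 lower to 174 and 240, total-count scaling to 969 and 166, and a minimum of 20 reads to 971 and 1150.

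RBPJ (ENSG00000168214) lies on the plus strand of chromosome 4, at 26163455 to 26435131 in GRCh38. It had 3571 reads in the control, 7104 in the LINC-labelled library and 4359 in the M2 library, or 495, 1157 and 930 CPM. The control was the lowest of the 3 and the LINC-labelled library the highest, with no overlap of their counting intervals. Against the control the log2 ratio was 1.22 (1.14 to 1.31) in the LINC-labelled library, 2.34-fold higher, and 0.91 (0.82 to 1.0) with M2, 1.88-fold higher. Between the treated libraries, RBPJ was lower with M2 than in the LINC-labelled library by a log2 ratio of −0.32 (−0.39 to −0.24), while the median of all 3404 genes judged in that comparison was 0.29.

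The RBPJ transcript is poor in G and C (38.0% of its longest transcript, against a median of 45.8% over expressed genes), and genes of that composition stood high in both treated libraries. Set against genes of like GC content, RBPJ remained higher in the LINC-labelled library, at a log2 ratio of 0.78 (0.70 to 0.86), which is under 2-fold. With M2 the same centring left −0.01 (−0.10 to 0.08). With GC and length centring RBPJ stood at 0.70 (0.62 to 0.79) in the LINC-labelled library and at −0.11 (−0.20 to −0.02) with M2. Processed pseudogenes of RBPJ hold near-identical sequence, and their 4 rows had at most 2 reads in any library. The counting strand is not known, and the 5 annotated genes that overlap members had 0 reads. RBPJL, a separate paralogue, had 0, 2 and 7 reads.

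Among the 5 protein-coding genes whose pair of log2 ratios to the control lay nearest to that of RBPJ were CERS6, a ceramide synthase, at a distance of 0.072, the neuronal RNA-binding protein ELAVL2 at 0.110 and the deubiquitinase USP32 at 0.112. Likeness is a Euclidean distance over 3 libraries, and 13 of 3561 candidate genes lay within 0.25. In the control, LINC-labelled and M2 libraries CERS6 had 62, 118 and 74 reads, ELAVL2 82, 153 and 96, and USP32 232, 433 and 296. These are far fewer than for RBPJ, and the distances carry no counting interval, so their order is imprecise. The GC content of these 3 genes ran from 36.2% (ELAVL2) to 45.7% (USP32).

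JAG2 (ENSG00000184916, chromosome 14, 105140981 to 105168824, minus strand, GRCh38) is one of the Jagged ligands presented to a neighbouring cell. It had 954 reads in the control, 479 in the LINC-labelled library and 391 with M2, which is 132, 78.0 and 83.4 CPM. The control was highest, and the treated libraries overlapped each other. The log2 ratio to the control was −0.76 (−0.99 to −0.54) in the LINC-labelled library and −0.67 (−0.91 to −0.42) with M2, and that of M2 against the LINC-labelled library was 0.10 (−0.18 to 0.38). Its transcript is the richest in G and C of the 9, at 64.0%. Against genes of like GC content its ratio was −0.14 (−0.37 to 0.09) in the LINC-labelled library and 0.095 (−0.15 to 0.34) with M2, so that neither interval excluded 0. With GC and length centring it was −0.25 (−0.48 to −0.02) and −0.12 (−0.37 to 0.12).

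JAG1 (chromosome 20, 10637684 to 10673999, minus strand), the other Jagged ligand and the one most often tied to breast cancer metastasis, had 54, 56 and 39 reads, or 7.49, 9.12 and 8.32 CPM. All 3 intervals overlapped. The log2 ratio was 0.28 (−0.53 to 1.10) in the LINC-labelled library and 0.15 (−0.77 to 1.05) with M2. A difference was not detectable at this depth.

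**Figure D2:**
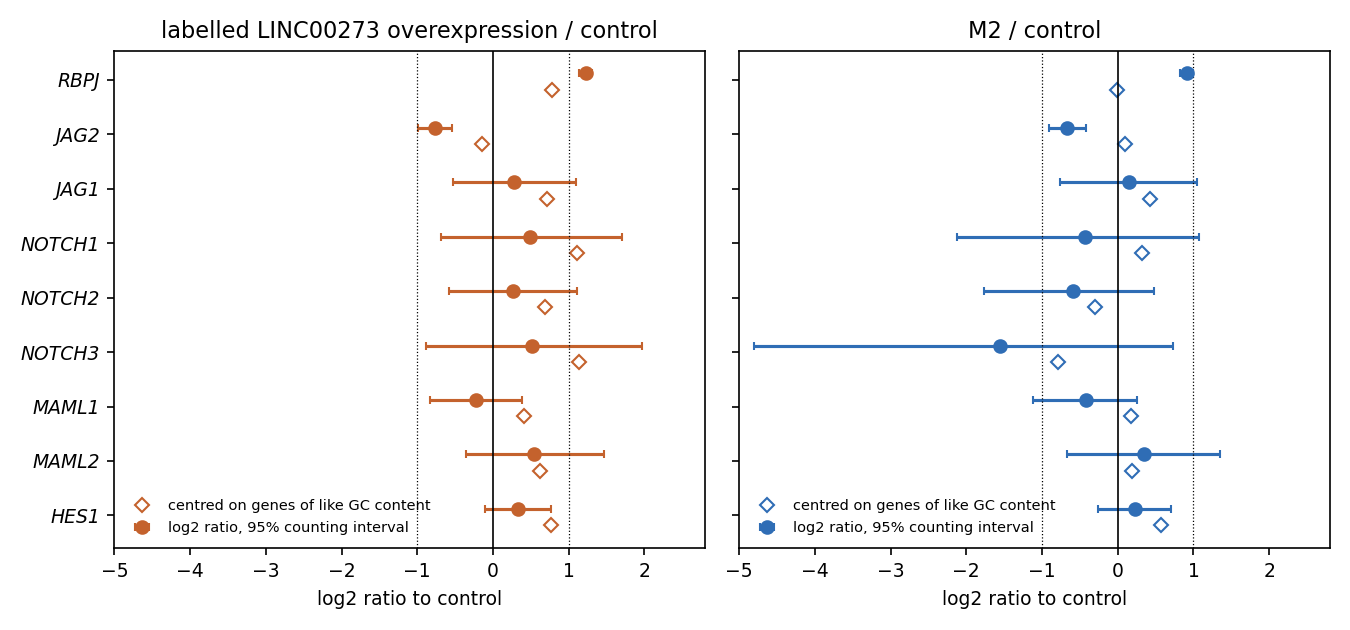
Log2 ratios of the 9 genes to the control with 95% counting intervals (filled circles) and after centring on genes of like GC content (open diamonds), with dotted lines at 2-fold. RBPJ at 1.22 in the LINC-labelled library lies past the line, and after centring it stands at 0.78 there and at −0.01 with M2.

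The 3 receptors were scarce in every library. NOTCH1 (chromosome 9, 136494433 to 136545786, minus strand) had 25 reads in the control, 30 in the LINC-labelled library and 12 with M2. NOTCH2 (chromosome 1, 119911553 to 120069626, minus strand) had 51, 52 and 22, and NOTCH3 (chromosome 19, 15159038 to 15200981, minus strand) had 18, 22 and 4. In all 3 genes the M2 library held the lowest scaled level, with overlapping intervals. The ratios of NOTCH1, NOTCH2 and NOTCH3 to the control were 0.49 (−0.69 to 1.70), 0.26 (−0.59 to 1.11) and 0.52 (−0.89 to 1.97) in the LINC-labelled library. With M2 they were −0.44 (−2.13 to 1.07), −0.59 (−1.76 to 0.48) and −1.55 (−4.80 to 0.72), the last on 4 reads. Set directly against the LINC-labelled library, NOTCH3 after M2 stood at −2.07 (−5.28 to 0.13) and NOTCH2 at −0.85 (−2.02 to 0.22). The human-specific partial copy NOTCH2NL, with which NOTCH2 can share reads, had 21 reads in the control, 2 in the LINC-labelled library and 11 with M2. Adding those reads to NOTCH2 gave a ratio of −0.18 in the LINC-labelled library, so the sign of the NOTCH2 ratio there depends on how shared reads are assigned.

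The series title concerns microRNA binding, and microRNAs of the miR-34 and miR-200 families are known regulators of Notch genes. Their mature sequences are shown (RefSeq, GRCh38.p14, 5′ to 3′) with the seed, bases 2 to 8, in capitals, because the seed sets which messages are matched. miR-200b, miR-200c and miR-429 share one seed, and miR-200a and miR-141 another.
hsa-miR-34a-5p: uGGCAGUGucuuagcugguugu
hsa-miR-200b-3p: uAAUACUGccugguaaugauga
hsa-miR-200c-3p: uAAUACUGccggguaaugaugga
hsa-miR-429: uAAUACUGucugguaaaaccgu
hsa-miR-200a-3p: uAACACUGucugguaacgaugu
hsa-miR-141-3p: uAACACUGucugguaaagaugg

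Letters complementary to the miR-34a seed (CACTGCC, on the transcript strand only) were found in the 3′ UTRs of NOTCH1, NOTCH3 and JAG1. They occur in 15.8% of 19120 annotated 3′ UTRs, taking the longest per gene in GENCODE 29. NOTCH1 and JAG1 have 2 matches each, shown with the match in capitals.
NOTCH1, chr9:136495885-136495891, minus strand: ttacacagaaaCACTGCCtttttatttata
NOTCH1, chr9:136495156-136495162, minus strand: ctggggaaagaCACTGCCtgggctgacccc
JAG1, chr20:10639480-10639486, minus strand: cagaccgcgggCACTGCCgccgctaggtag
JAG1, chr20:10638190-10638196, minus strand: gccatagagtaCACTGCCtgccttaagtga

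The match to the miR-200b, miR-200c and miR-429 seed (CAGTATT) lies in NOTCH1 and JAG2 and in 16.0% of all 3′ UTRs. The match to the miR-200a and miR-141 seed (CAGTGTT) lies in RBPJ and NOTCH3 and in 18.3%. The RBPJ match is shown because that gene had the largest difference of the 9 in the LINC-labelled library before GC centring.
RBPJ, chr4:26432786-26432792, plus strand: gtaacttcctaCAGTGTTtccctacagaac

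None of the 3 matches was found in the 3′ UTRs of NOTCH2, HES1, MAML1 or MAML2 used here. Among the genes with a match, RBPJ was higher in the LINC-labelled library and JAG2, which matches another seed, was lower before GC centring, while NOTCH1, NOTCH3 and JAG1 had intervals that spanned 0.

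The coactivators that hold the RBPJ complex on DNA were also at low levels. MAML1 (chromosome 5, 179732850 to 179777286, plus strand) had 115, 84 and 56 reads, or 16.0, 13.7 and 11.95 CPM in the control, LINC-labelled and M2 libraries. Its ratio was −0.22 (−0.83 to 0.38) in the LINC-labelled library and −0.42 (−1.12 to 0.26) with M2. MAML2 (chromosome 11, 95976598 to 96343180, minus strand) had 41, 51 and 34 reads and ratios of 0.55 (−0.35 to 1.46) and 0.35 (−0.67 to 1.35). The libraries overlapped for both genes.

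HES1 (ENSG00000114315, chromosome 3, 194136145 to 194138732, plus strand), a repressor of differentiation genes, is the best-known direct target of RBPJ. It had 172 reads in the control, 184 in the LINC-labelled library and 131 with M2, or 23.9, 29.97 and 28.0 CPM. The control was lowest, and all 3 intervals overlapped. The log2 ratio was 0.33 (−0.11 to 0.77) in the LINC-labelled library and 0.23 (−0.26 to 0.71) with M2, and both intervals spanned 0. Scaled to the total count, HES1 stood at 0.85 (0.41 to 1.29) in the LINC-labelled library, with an interval above 0. Against genes of like GC content the HES1 ratio was 0.76 (0.32 to 1.21) in the LINC-labelled library and 0.57 (0.08 to 1.05) with M2. After the same centring, 16.8% and 16.4% of all genes had intervals above 0, and HES1 stayed under 2-fold in both.

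The 250 bases before the HES1 start hold the letters TGGGAA, the core that RBPJ recognises, at 84 and 70 bases before the start, both on the gene's strand. They are shown in capitals, from RefSeq on GRCh38.p14, because they match that core letter for letter. Sites that differ from TGGGAA were not searched for, and binding to these letters was not tested.
HES1 promoter, chr3:194135898-194136147, plus strand: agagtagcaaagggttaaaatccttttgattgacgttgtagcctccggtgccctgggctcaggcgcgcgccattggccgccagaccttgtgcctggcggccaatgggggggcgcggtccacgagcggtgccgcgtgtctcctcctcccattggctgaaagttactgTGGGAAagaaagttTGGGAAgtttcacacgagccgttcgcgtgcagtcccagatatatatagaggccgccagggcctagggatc

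Searching both strands, 1 or more copies of TGGGAA were present in 21.1% of 27305 promoter windows of that length and 2 or more in 2.92%. HES1 was the 1 member of 9 with a match, and the windows of RBPJ, the receptors, the ligands and the MAML genes held none.

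Ratios of all genes followed base composition, and the members followed that trend in part. The rank correlation of log2 ratio with GC content across genes, which are not independent replicates, was −0.60 over 3796 genes in the LINC-labelled library and −0.69 over 3763 genes with M2. The 20% of genes poorest in G and C had a median ratio of 0.45 in the LINC-labelled library and 0.91 with M2, and the richest 20% −0.62 and −0.67. Of the members with at least 100 reads, RBPJ lay above the median of its neighbours in the LINC-labelled library and on it with M2, HES1 lay above it in both, and JAG2 lay near it in both. MAML1 stood at 0.40 and 0.18 after centring. NOTCH1 and NOTCH3, both rich in G and C, stood at 1.12 (−0.07 to 2.32) and 1.14 (−0.27 to 2.59) after centring in the LINC-labelled library, on few reads, so that their intervals included the trend.

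**Figure D3:**
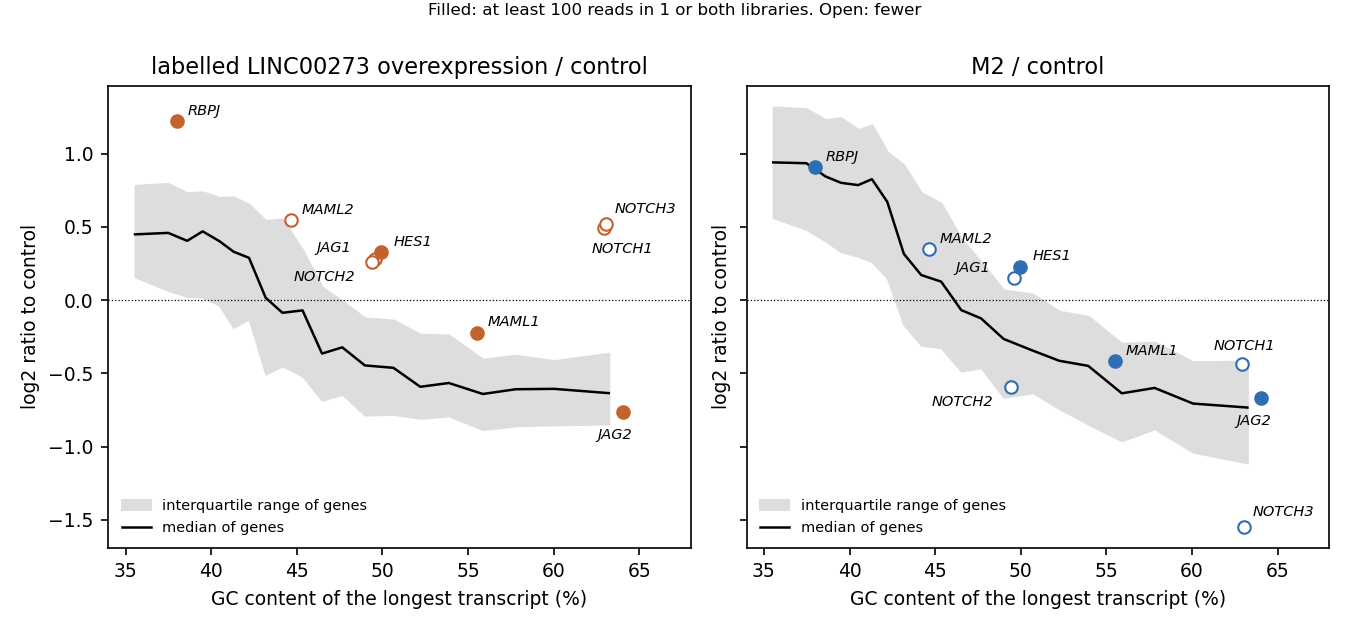
Log2 ratio to the control against GC content of the longest transcript. The line is the median and the band the interquartile range of genes reaching 100 reads in either library, in 20 bins, and points are the 9 genes (open where they have fewer reads). RBPJ at 38.0% GC lies above the band in the LINC-labelled library and on the line with M2, and JAG2 at 64.0% lies near the line in both.

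A list of 73 further Notch pathway genes placed these values in context, of which 49 had at least 20 reads over both libraries in the LINC-labelled comparison and 45 in the M2 comparison. In the LINC-labelled library, a 1.5-fold difference or more was seen upward in 11 of the 49 and downward in 8, with a median log2 ratio of 0.09. Over all 8828 genes with as many reads, 21.7% were higher, 25.2% lower, and the median was −0.08. With M2, 13 of the 45 were higher and 10 lower (median 0.14), against 24.8% and 31.4% of 7988 genes (median −0.15). By the same rule 1 of the 9 members was higher and 1 lower in the LINC-labelled library, and 1 was higher and 3 lower with M2.

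Among genes of receptor cleavage, the sheddase ADAM10 had 435, 960 and 884 reads in the control, LINC-labelled and M2 libraries. It was 2.59-fold higher in the LINC-labelled library (1.37, 1.14 to 1.61) and 3.13-fold higher with M2 (1.64, 1.41 to 1.89), and after GC centring it stood at 0.93 and 0.73. The gamma-secretase subunit APH1A had 1613, 743 and 652 reads and was lower at −0.89 (−1.07 to −0.71) and −0.69 (−0.88 to −0.50), with −0.24 (−0.43 to −0.07) and −0.09 (−0.28 to 0.10) after centring. FURIN, which processes the receptors in the Golgi, was 2.64-fold lower with M2 (361 and 89 reads, −1.40, −1.91 to −0.92), and stood at −0.68 (−1.19 to −0.20) after centring. The subunit NCSTN, with 9, 14 and 6 reads, was counted among the higher genes of the list in the LINC-labelled library at 0.87, with an interval that spanned 0 (−1.05 to 2.97), and PSENEN had at most 1 read.

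Of the ligands outside the Jagged pair, DLL1, DLL3 and DLL4 had at most 12, 8 and 4 reads in a library, and the other receptor NOTCH4 at most 18. DLK2, a related membrane protein, had 36, 19 and 16. The Fringe genes LFNG, MFNG and RFNG, which tune ligand choice by adding sugars to the receptor, had 8 or fewer. POFUT1, which adds the first fucose, had 100, 63 and 32 reads and was lower with M2 at −1.02 (−1.93 to −0.19), but its interval spanned 0 after centring (−0.68, −1.59 to 0.16). POGLUT1, which adds glucose to the receptors, had 32, 50 and 36 reads, and its intervals spanned 0. Among genes of trafficking and turnover, NUMBL, an inhibitor of Notch, had 124, 70 and 20 reads and was 4.03-fold lower with M2 (−2.01, −3.14 to −1.04), still −1.31 after centring. ITCH, a ubiquitin ligase of Notch, was higher in the LINC-labelled library (0.77, 0.55 to 0.98) and with M2 (1.02, 0.80 to 1.24), but stood at 0.31 (0.10 to 0.53) and 0.17 (−0.05 to 0.39) after centring. FBXW7, which marks the intracellular part for degradation, was higher with M2 (172 and 216 reads, 0.95, 0.53 to 1.38) and at 0.91 after centring. The kinase AAK1, with 287, 358 and 320 reads, stood at 0.55 and 0.78, and at 0.29 and 0.14 after centring, where both intervals spanned 0.

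The corepressor NCOR1 had the largest difference in the LINC-labelled and M2 libraries among partners of RBPJ with at least 100 reads before centring, and EP300 had a larger one in the LINC-labelled library after it. Its reads were 2193 in the control, 3882 in the LINC-labelled library and 4330 with M2, or 304, 632 and 924 CPM. It was 2.08-fold higher in the LINC-labelled library (1.06, 0.95 to 1.16) and 3.04-fold higher with M2 (1.60, 1.497 to 1.71), and it stayed past 2-fold after GC centring, at 1.14 and 1.43. Its 3 pseudogene rows had at most 10 reads in a library. SPEN, the other corepressor named above, had 514, 303 and 284 reads. It was lower in the LINC-labelled library (−0.53, −0.83 to −0.24) and stood at −0.23 (−0.54 to 0.07) with M2. After centring SPEN stood at 0.04 (−0.26 to 0.33) and 0.13 (−0.17 to 0.44). EP300, the acetyltransferase brought in by Mastermind, had 392, 587 and 476 reads and ratios of 0.81 (0.55 to 1.08) and 0.90 (0.62 to 1.18), which were 1.41 and 1.31 after centring. CDK8, a kinase that acts on the Notch intracellular part, stood at 0.37 (0.05 to 0.69) in the LINC-labelled library and 1.15 (0.85 to 1.45) with M2, and at 0.48 and 1.03 after centring. Its partner CCNC stood at 0.15 and 0.49, and below 0 after centring, at −0.27 and −0.34, and the acetyltransferase KAT2A had 51, 42 and 22 reads with intervals that spanned 0. Of the 13 measured corepressors, 4 were higher and 3 lower by 1.5-fold or more in the LINC-labelled library, and 3 and 1 with M2, beside 21.7% and 25.2%, and 24.8% and 31.4%, of all genes. CTBP1 was lower in the LINC-labelled library (730 and 375 reads, −0.73, −0.99 to −0.47) and at −0.12 (−0.38 to 0.14) after centring. With M2 it stood at −0.25 (−0.51 to −0.0007), and on the other side of 0 after centring, at 0.44 (0.18 to 0.69). CTBP2 had 375, 202 and 268 reads. It was lower in the LINC-labelled library (−0.66, −1.02 to −0.30) and at −0.82 (−1.18 to −0.46) after centring. With M2 CTBP2 stood at 0.14 (−0.19 to 0.46), and at −0.38 (−0.71 to −0.05) after centring. The demethylase KDM5A had 268, 383 and 274 reads and was higher in both (0.75 and 0.65). After centring it stood at 0.63 (0.30 to 0.96) in the LINC-labelled library and at 0.25 (−0.11 to 0.60) with M2. L3MBTL3 had 40, 14 and 16 reads and ratios of −1.28 (−2.77 to 0.02) and −0.70 (−2.09 to 0.54). After centring it stood at −1.60 (−3.08 to −0.30) and −1.40 (−2.80 to −0.16), intervals below 0 on few reads.

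**Figure D4:**
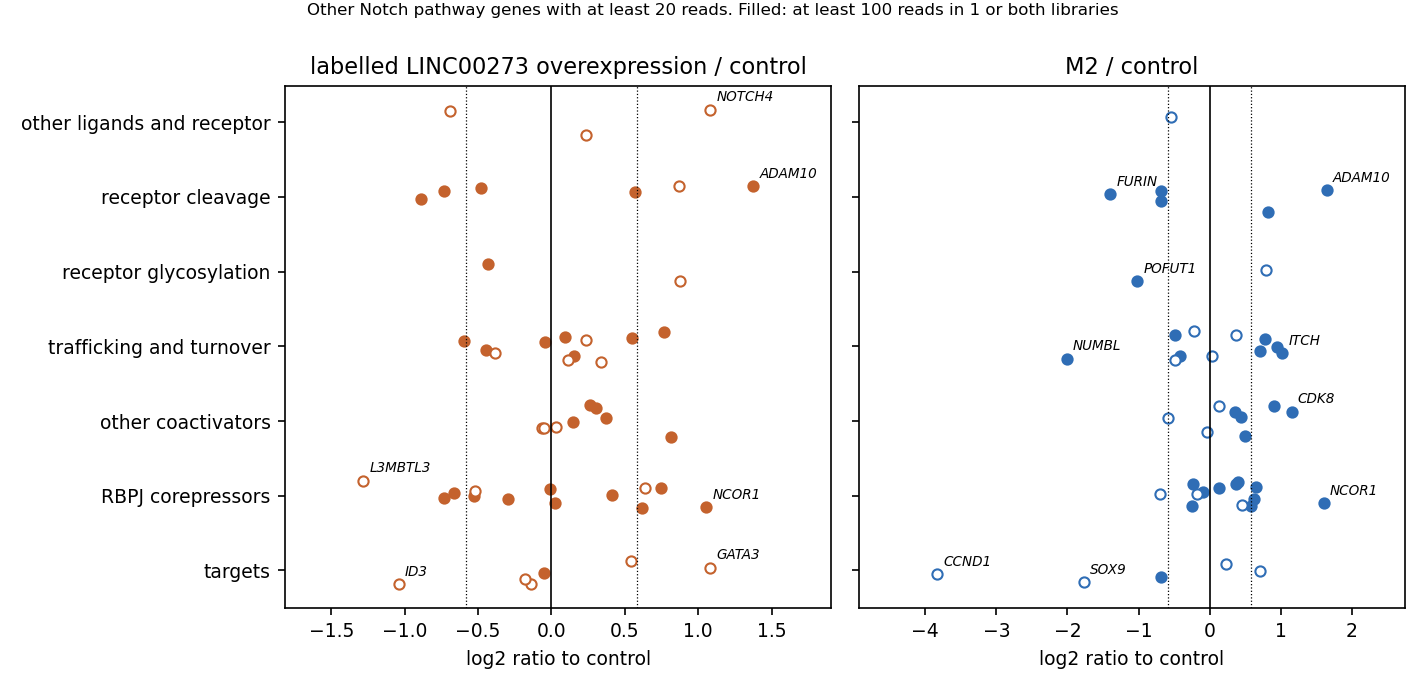
Log2 ratios to the control of other Notch pathway genes with at least 20 reads over both libraries, by role, with dotted lines at 1.5-fold and filled points for genes reaching 100 reads in either library. ADAM10 at 1.37 and 1.64 and NCOR1 at 1.06 and 1.60 lie to the right in both panels, and CCND1 at −3.84 is lowest with M2.

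Targets other than HES1 were mostly too low to follow. HEY1, HEY2, HEYL, HES4, HES5 and NRARP had 8 or fewer reads in every library. CCND1, the cell cycle regulator cyclin D1, had 44 reads in the control, 34 in the LINC-labelled library and 2 with M2, a ratio of −3.84 (−9.21 to −1.21) with M2 and of −0.14 (−1.14 to 0.84) in the LINC-labelled library. ID3 had 58, 24 and 44 reads and was lower in the LINC-labelled library (−1.04, −2.15 to −0.03), but not after GC centring (−0.43, −1.53 to 0.59), and SOX9, with 21, 26 and 4 reads, stood at −1.77 (−4.99 to 0.44) with M2. GATA3 had 10, 18 and 6 reads. NFKB2, with 260, 214 and 105 reads, stood at −0.05 (−0.43 to 0.33) in the LINC-labelled library. With M2 it was lower (−0.69, −1.18 to −0.21). After centring NFKB2 stood at 0.57 (0.19 to 0.95) in the LINC-labelled library and 0.07 (−0.42 to 0.55) with M2. Of the 6 targets measured in the LINC-labelled library, 1 was higher and 1 lower by the 1.5-fold rule, and of the 5 measured with M2 1 was higher and 3 lower. The shares over all genes by that rule were 21.7% and 25.2%, and 24.8% and 31.4%.

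With M2 set directly against the LINC-labelled library, 0 of the 9 members were past 2-fold among the 3 with enough reads, against a background of 1.65% higher and 1.47% lower over 3404 genes. Scaled to the total count, 17 genes were higher and 113 lower in place of 56 and 50, and after GC centring 13 and 97. RBPJ, already given, had the 1 interval beyond 0, on the lower side, where 7.76% of genes lay by that rule and 23.8% lay on the higher side. After GC centring 0 of those 3 were past 2-fold (background 0.386% higher and 2.88% lower). RBPJ at −0.78 and NOTCH2 at −1.08 (−2.25 to −0.02) then had intervals below 0, where 9.55% of genes lay above and 15% below. The NOTCH2 interval spanned 0 with GC and length centring (−1.04, −2.21 to 0.02) and with NOTCH2NL reads added (−0.32, −1.30 to 0.62). HES1 stood at −0.10 (−0.58 to 0.37) and JAG1 at −0.13 (−1.05 to 0.75).

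The authors' deposited table of genes called different for LINC00273 lists 809 genes and that for M2 lists 670, and 0 of the 9 members are in either. The smallest absolute log2 ratio listed was 1.87 for LINC00273 and 2.09 for M2, well past 2-fold. Under the deposited scaling RBPJ stood at 1.30 in the LINC-labelled library and 0.98 with M2, below those values. Of the other pathway genes, the authors' deposited table for LINC00273 holds HES6 at a fold change of 9.92 and DTX2 at 4.96. For M2, the authors' deposited table holds HES6 at 4.86 and CCND1 at 0.0736. HES6 rests on 2, 16 and 6 recovered reads and DTX2 on 1, 4 and 2.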

How the data were processed

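Values were deposited by the authors as a scaled signal for each gene, in 1 table per comparison, whose control values differ by at most 0.000269. Tools named, per the submitters' processing notes, were featureCounts 1.5.2, Bowtie2 2.2.4, DESeq2, STAR and Trimmomatic, on build hg19. For settings, strand mode and treatment of shared reads, the answer is not given in the sources used here. The deposited values were whole multiples of 1 step per library, and dividing by it gave whole reads for 100% of values within 0.01. The planned design had assumed counts. Of genes with fewer than 20 reads, 80.5% to 85.8% had an even number, so intervals were computed on fragments (2 reads each). TMM scaling (R 4.3.3, edgeR 4.0.16) gave effective sizes of 7208511, 6139145 and 4686051. Ratios have no prior. Single libraries leave a model no residual freedom, so no count test was run and no number of genes called by one is given. No molecular identifiers are named in the sources used here, so PCR copies may be counted more than once. The ratio (fold change) and log2 columns of the authors' lists are quoted as deposited.

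GC content (longest transcript), exon length and coordinates came from GENCODE 29 on GRCh38, matched by Ensembl ID for 98.9% of 3875 expressed genes. Centring subtracts the median of the 301 genes nearest in GC content. DESeq2 1.42.0 size factors, total-count and deposited scaling, read minimums, a 4-fold threshold, a prior of 5 reads, coding genes only, centring and added copies were alternatives. Ratios and intervals were tested on simulated data. Named pathway genes are up to 4 per role with the largest ratio in either direction, and genes without enough reads are named to account for the role. EP300, CDK8, CTBP1 and ITCH fell under this rule, while the low targets, the copies, SPEN, CTBP2 and NFKB2 were added for comparison. A few genes that the rules name are not reported here. The members and lists were chosen with earlier results of these data known.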

Additional observations from a re-analysis of the deposited data

How the results depend on the processing

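RBPJ stayed past 2-fold in the LINC-labelled library with DESeq2 size factors, total-count and deposited scaling, minimums of 20 and 500 reads and none, a prior of 5 reads, coding genes only and added copies. Its log2 ratio ran from 0.70 to 1.74 over all alternatives. The number of members higher there was 0 in place of 1 at a 4-fold threshold, with GC centring and with GC and length centring. With M2, 1 member (RBPJ) was higher in place of 0 when scaled to the total count, and 1 (NOTCH3, on 4 reads) was lower with no minimum. For M2 against the LINC-labelled library, 1 (NOTCH3) was lower in place of 0 with a minimum of 20 reads and 1 with no minimum. Of ratios with an interval beyond 0, the sign turned for RBPJ with M2 under GC centring (−0.0079) and GC and length centring (−0.11, −0.20 to −0.02). It also turned for JAG2 with M2 under GC centring (0.095). Of these 3, only the RBPJ interval under GC and length centring lay beyond 0 on the other side. Of ratios whose interval spanned 0, it turned for MAML1 in the LINC-labelled library (0.40 and 0.25 under the 2 centrings, 0.30 scaled to the total count) and with M2 (0.18 and 0.026), NOTCH1 with M2 (0.32, GC), MAML2 with M2 (−0.069, GC and length), NOTCH2 in the LINC-labelled library (−0.18, copies added) and JAG2 for M2 against it (−0.17, total count). Scaled to the total count, MAML2 in the LINC-labelled library (1.07, 0.17 to 1.98) and NOTCH2 (−1.12, −2.28 to −0.05) and NOTCH3 (−2.33, −5.55 to −0.14) for M2 against it had intervals beyond 0. Centring subtracts the trend with base composition by construction. Otherwise the cause was not tested.

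For the pathway list, alternatives were chosen after seeing the data. Scaled to the total count, 25 genes were higher (main 11) and 1 lower (main 8) in the LINC-labelled library, 21 higher (13) and 5 lower (10) with M2, and 3 higher (7) for M2 against the LINC-labelled library. GC centring left 3 lower in the LINC-labelled library and 2 higher for M2 against it, and GC and length centring also 3 and 2. A minimum of 100 reads left 6 higher and 5 lower in the LINC-labelled library, 6 lower with M2, and 4 higher and 2 lower for M2 against it.

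No paired analysis was possible because each group has 1 library, and for the same reason no library was left out. Receptors had 4 to 52 reads, which limits their precision.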

Other observations

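NOTCH2NL had 21 reads in the control, 2 in the LINC-labelled library and 11 with M2, while NOTCH2 had 51, 52 and 22. RBPJL had 0, 2 and 7 reads.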
